A study of Drosophila melanogaster with 8 samples.

Results

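Translation initiation factors (eIF) bring the messenger RNA, the initiator tRNA and the ribosomal subunits together at a start codon, and elongation factors (eEF) then carry the ribosome along the reading frame. The eIF4 proteins bind the cap and unwind the 5′ leader, eIF3 holds the small subunit, eIF2 delivers the initiator tRNA and is recharged by eIF2B, and eIF1, eIF1A and eIF5 govern start site choice. The eEF1 complex delivers aminoacyl-tRNAs, eEF2 moves the ribosome by a codon, and eEF5 (also known as eIF5A) helps peptide bonds form at difficult sequences. Most of these proteins are used by every growing cell, and Drosophila carries second copies of several of them, some known mainly from the germ line.

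The genes described here are those whose FlyBase symbol begins with eIF or eEF, 51 of the 13932 genes in the deposited tables. The tables come from 8 poly-A selected libraries of S2R+ cells, an embryo-derived cell line of Drosophila melanogaster with macrophage-like properties. Wild-type S2R+ cells and S2R+ cells carrying a CRISPR mutation of STAT92E, the transcription factor of the JAK/STAT pathway, were each kept for 1 hour in control media or with upd, the secreted ligand of that pathway. Each of these 4 groups held 2 libraries, whose labels do not say whether they came from separate cultures, so p-values measure only the spread between these libraries. The labels give neither the molecular lesion of the mutant line nor whether it is 1 clone, and a difference between the lines may therefore belong to the mutation or to the line.

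The libraries held 8285533 to 30352948 counts. The wild-type libraries of replicate 1 were the shallow ones, at 8285533 and 9142736 counts. Stat92E itself stood at 161 and 178 CPM (counts scaled to the normalised library size, the measure used below for 1 gene across libraries) in wild-type control media and at 103 and 114 in the mutant, a log2 difference of -0.65 ± 0.14 (SE; adjusted p = 0.0253, edgeR quasi-likelihood test with Benjamini-Hochberg adjustment over all genes). With upd its difference was -0.45 ± 0.14 and did not pass (adjusted p = 0.0801). The haemocyte markers srp, Pxn and crq were present in both lines, NimC1 and eater were at or near 0 in both, and the summed CPM of the 9 haemocyte markers was 854 to 1353 in wild-type libraries against 438 to 474 in mutant libraries. That gap lay mainly in the collagen genes Col4a1 and vkg, with 376 to 601 and 88.4 to 180 CPM in wild type against at most 1.34 and 1.67 in the mutant. Hml was also lower in every mutant library, at 0.385 to 1.29 CPM against 1.64 to 11.2 in wild type, and drpr overlapped between the lines. The 7 germ line markers summed to 63.8 to 68.8 CPM in wild type and 35.4 to 43.4 in the mutant, a gap that lay in bam (40.0 to 42.8 against 1.05 to 5.82), whereas mia went the other way (19.6 to 27.9 against 33.1 to 38.5), aly and can had 0 counts in all libraries and vas reached at most 0.576 CPM. Neuron markers summed to 11.6 to 23.1 CPM, fat body markers to 8.6 to 15.7 CPM, and of the muscle markers only Mf exceeded 2 CPM. The contribution of these marker differences to the results below was not tested.

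Elongation factors were the most abundant of these transcripts. On the length-corrected RPKM scale of the deposited tables, eEF5 had a mean over the 8 libraries of 8607, with 7475 in the lowest and 9551 in the highest library. eEF1alpha1, which carries aminoacyl-tRNA to the ribosome, followed with a mean of 4370 and a range of 3595 to 4783. The ranges of these 2 transcripts did not overlap each other or that of the next, eEF1beta, which lay between 1044 and 1872 RPKM. Together eEF1alpha1 and eEF5 took 46.6% to 51.4% of all the counts of these genes, and the 51 genes together took 3.39% to 4.04% of a library's counts. The other subunits of the nucleotide exchange complex of eEF1, eEF1gamma (mean RPKM 974) and eEF1delta (476), and the translocase eEF2 (771) completed the abundant elongation set. eEFSec, the selenocysteine elongation factor, was low at a mean of 1.73 RPKM.

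Among initiation factors the RNA helicase eIF4A was highest, with a mean of 1022 RPKM and a range of 727 to 1319. The start site factor eIF1 followed at 679 and the helicase partner eIF4H1 at 589, and the ranges of these 3 transcripts overlapped. The 3 subunits of eIF2 were unequal, with eIF2beta at 488, eIF2gamma at 139 and eIF2alpha at 113 RPKM, and the range of eIF2beta (414 to 569) lay above those of the other 2. The 5 subunits of its exchange factor eIF2B were low and close together, from 16.0 RPKM for eIF2Bbeta to 29.2 for eIF2Bdelta, a 1.82-fold span. The range of eIF2Bbeta (11.8 to 20.4) lay below those of eIF2Bdelta (20.9 to 36.4) and eIF2Bepsilon (23.2 to 35.1). It overlapped those of eIF2Balpha and eIF2Bgamma. The abundant eIF3 subunits ran from eIF3a at 55.5 and eIF3l at 58.0 to eIF3k at 445. The scaffold proteins eIF4G1 and eIF4G2 were at 38.4 and 43.9 RPKM, below the cap-binding protein eIF4E1 at 105. eIF5, which activates GTP hydrolysis by eIF2, was listed at a mean of 3.96 RPKM, but 80.8% of its exon bases lie within exons of CG46312 on the same strand, a gene with 0 counts in all libraries, and how the counting treated reads in shared bases is not given.

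**Figure D1:**
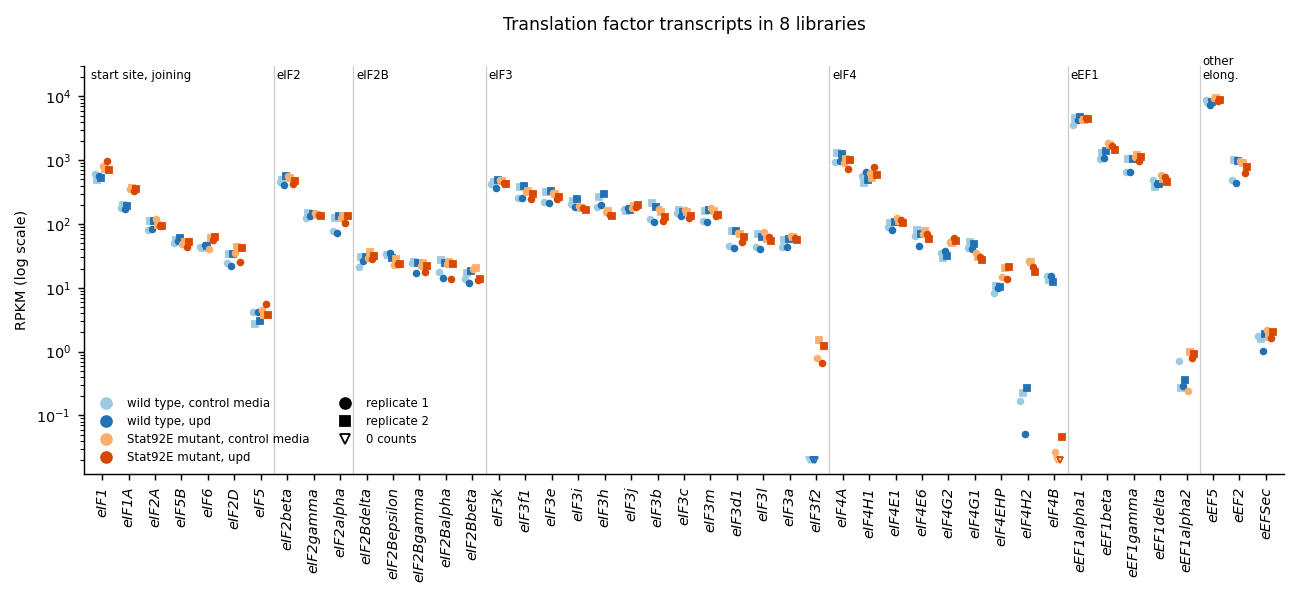
RPKM on a log axis of the 45 tested translation factors in each of the 8 libraries, grouped by role and ordered by mean within each role; colours mark the 4 groups, circles and squares replicates 1 and 2, and open triangles libraries with 0 counts. eIF3f2, eIF4H2 and eIF4B have libraries at or near 0 in a line. Of the 45 factors, 15 (33.3%) have no overlap in CPM between the lines, near the 31% of all genes tested.

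Where a factor has several gene copies, 1 copy usually carried nearly all of the RNA. The filter on low counts removed 6 copies, namely eIF4E3, eIF4E4, eIF4E5, eIF4E7, eIF3d2 and eIF3g2, none above 0.194 RPKM in any library, and eIF3g2 had 0 counts in all 8. eIF3d2 never exceeded 0.0375% of the summed RPKM of the eIF3d pair. eEF1alpha2 was at 0.0056% to 0.0232% of the eEF1alpha pair, although these copies are so alike that reads could be split between them. The cap-binding family was shared by 3 genes: eIF4E1 held 53.0% to 59.0% of its RPKM, eIF4E6 32.0% to 41.3%, and the repressive homologue eIF4EHP the next share. Of the 5 pairs measured in this way, the eIF4G pair alone was shared, with 35.8% to 66.3% of its RPKM from eIF4G2.

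The largest differences between the lines were in the small RNA-binding partners of the helicase eIF4A and in an eIF3 subunit copy. eIF4B, which stimulates unwinding by eIF4A, was nearly absent from mutant cells; eIF4H2, a copy of the related factor eIF4H1, was nearly absent from wild-type cells; and eIF3f2, the second copy of eIF3 subunit f, was found in mutant cells alone. Between the lines, 4 of the 45 tested factors passed an adjusted p of 0.05 in control media (8.89%) and 7 with upd (15.6%), against 8.97% and 10.5% of all 8126 genes tested. eIF4B, eIF4H2 and eIF3f2 passed the filter on low counts only through the line where they were high. Their calls are therefore no independent support for a line difference, and the low eIF4B was known when these genes were chosen. In control media eIF4H2, eIF3f2 and eIF1A were higher and eIF4B was lower in the mutant, where 3.27% of all genes were higher and 5.7% lower. With upd the same 4 genes passed in the same directions, together with higher eIF4EHP and lower eIF3h and eIF4G1, where 3.99% of all genes were higher and 6.53% lower.

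eIF4B (FBgn0020660; dm6 chromosome 3L, 27842669 to 27858271, minus strand) had 244 and 690 counts in the wild-type control libraries, and 269 and 684 after the ligand was added. In the mutant the 2 control libraries held 1 and 0 counts and the 2 upd libraries 0 and 2. No library of one line came near the other, and this was the case in both media. Scaled to library size, the wild-type to mutant ratio was 909 in control media (exact 95% interval 163 to 35922, counting error only) and 522 with upd (144 to 4313), or 651 over both media (222 to 3158). With so few mutant counts single libraries moved these ratios: without mutant control replicate 2 the first was 509, without mutant control replicate 1 it was at least 133, and with upd it was 282 without mutant upd replicate 1 and at least 160 without mutant upd replicate 2. The adjusted p of edgeR's quasi-likelihood test was 5.83e-05 and 5.46e-05. eIF4B was nonetheless a minor transcript in wild type, at 12.4 to 15.4 RPKM. The next measured gene on one side, Dbp80, an RNA helicase gene 421 kb away, was at 113 and 84.3 CPM in wild-type control media and 71.8 and 72.6 in the mutant (log2 difference -0.45 ± 0.19; adjusted p = 0.199), and with upd its difference of -0.78 passed (adjusted p = 0.0378). The next 3 genes tested on that side, RpL15, vtd and CG40228, did not pass in either medium, and no measured gene lies on the other side.

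eIF4H2 (chromosome 3R, 30726087 to 30728052) had 3 and 13 counts in wild-type cells without the ligand and 1 and 17 with it. In the mutant it had 1097 and 806 counts, and 958 and 877 with upd, which is 52.5, 49.2, 48.3 and 37.5 CPM. The 4 mutant libraries were close to each other and far above all wild-type libraries. The mutant to wild-type ratio of scaled counts was 122 in control media (exact 95% interval 75.1 to 214) and 93.1 with upd (58.8 to 157), with adjusted p of 2.67e-05 and 2.66e-05. Its 4 tested neighbours, CG11313, Npc2g, Npc2h and zfh1, did not pass in either medium, with lowest adjusted p for zfh1 (0.0715 and 0.0539), and all the others of the 10 nearest measured genes failed the filter.

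eIF4H1 kept the bulk of this helper RNA in both lines. Its share of the summed RPKM of eIF4B, eIF4H1 and eIF4H2 was 97.0% to 97.7% in wild type and 95.4% to 97.4% in the mutant. eIF4B supplied 2.27% to 2.92% in wild type, and eIF4H2 supplied 2.56% to 4.57% in the mutant. The summed RPKM of the 3 genes was 455 to 670 in wild type and 561 to 816 in the mutant, so the lines overlapped. eIF4A stood at 2348, 2749, 2546 and 2718 CPM in wild type and at 1967, 2179, 1838 and 2314 in the mutant; no mutant library reached the lowest wild-type one, but the differences of -0.30 ± 0.18 and -0.34 ± 0.18 did not pass (adjusted p = 0.359 and 0.271).

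eIF3f2 (chromosome 2R, 6200853 to 6201956) had 0 counts in all 4 wild-type libraries and 19, 27, 17 and 34 counts in the mutant. Against a floor of 3 counts over the group it was at least 15.8-fold higher in control media and at least 15.5-fold with upd, and at least 31.3-fold over both media (adjusted p = 0.0275, 0.0264 and 0.0035). Without the deep wild-type library of replicate 2 the bound fell to 3.25 in either medium. In control media the call was lost on leaving out any of the 4 control libraries, with an adjusted p up to 0.151, and with upd on leaving out wild-type replicate 1, wild-type replicate 2 or mutant replicate 2, up to 0.161. The amounts were small, at 0.252% to 0.463% of the eIF3f pair in the mutant. eIF3f1 itself was at 400 to 543 CPM in wild type and 403 to 446 in the mutant. Of the 10 nearest measured genes of eIF3f2, 3 were tested and did not pass.

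**Figure D2:**
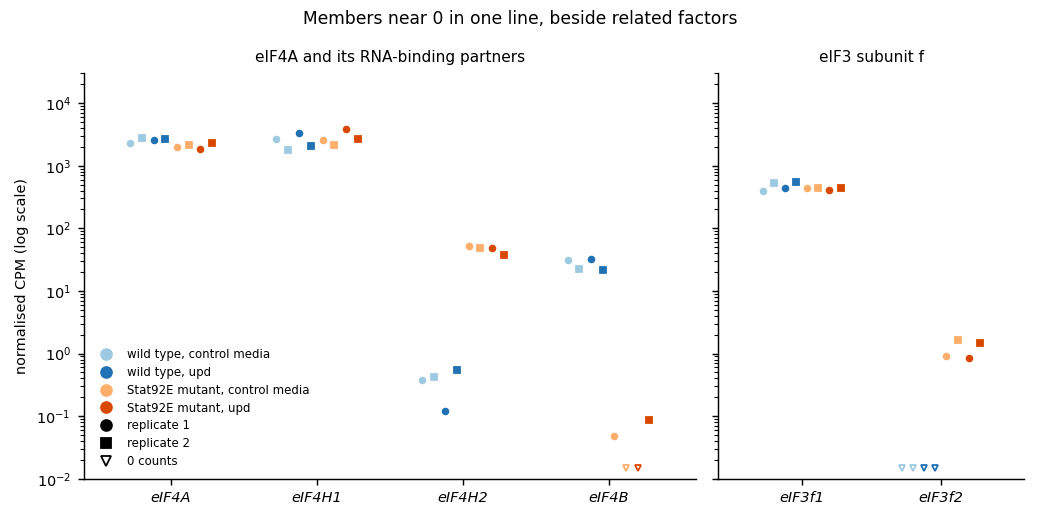
Normalised CPM on a log axis in each library for eIF4A, eIF4H1, eIF4H2 and eIF4B on the left and for the eIF3f pair on the right; colours mark the 4 groups, circles and squares replicates 1 and 2, and open triangles 0 counts. eIF4H2 lies between 37.5 and 52.5 CPM in the mutant and at most 0.544 in wild type, eIF4B shows the opposite order, and eIF4A and the first copies eIF4H1 and eIF3f1 are present in all 8 libraries.

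eIF1A, which holds the scanning ribosome open and helps the subunits join, was higher in the mutant in both media. It measured 354 and 334 CPM in wild-type control media, 364 and 338 with upd, 616 and 629 in mutant control media, and 680 and 662 with upd. The 4 wild-type libraries spanned 334 to 364 and lay well below the lowest mutant library. The log2 difference was 0.86 ± 0.14 in control media (adjusted p = 0.00621) and 0.94 ± 0.14 with upd (adjusted p = 0.00389, edgeR). In control media the adjusted p rose to 0.0561 at most when 1 library was left out, and the call was lost without wild-type replicate 2 or mutant replicate 1; with upd the call held without any 1 library. Of the other 6 start site and joining factors, eIF1 was also higher in every mutant library (515 to 838 CPM against 347 to 504) but did not pass (0.39 ± 0.26 and 0.64 ± 0.26, adjusted p = 0.412 and 0.156). With upd it did pass without the filter on low counts (0.0132) and in a fit with the replicate number as a term over all libraries (0.0167). eIF2A, eIF2D, eIF5, eIF5B and eIF6 overlapped between the lines.

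Of the cap-binding complex and its relatives, eIF4G1 and eIF4EHP passed between the lines with upd and not in control media. eIF4G1 (chromosome 4, 915297 to 930715), the main scaffold that joins eIF4E and eIF4A, measured 322, 342, 336 and 331 CPM in wild type and 243, 200.3, 241 and 198 in the mutant. The 2 ranges were far apart relative to the spread in wild type. The difference was -0.58 ± 0.16 in control media (adjusted p = 0.0605) and -0.60 ± 0.16 with upd (adjusted p = 0.0482), and the latter call was lost on leaving out any 1 of the 8 libraries (adjusted p 0.0628 to 0.184). eIF4G2, known in Drosophila for its role in the male germ line, measured 378, 267, 442 and 304 CPM in wild type and 503, 465, 665 and 548 in the mutant. Its lowest mutant library was only just above its highest wild-type library, and neither medium passed (0.59 ± 0.23 and 0.70 ± 0.23; adjusted p = 0.16 and 0.0933). With upd eIF4G2 did pass in DESeq2 (adjusted p = 0.0325), without the filter on low counts (0.00516) and in limma on log2(RPKM + 1) (0.048), and in control media without the filter (0.0277). Most alternative fits did not pass it: 5 of 17 did with upd and 2 of 17 in control media. Leaving out 1 library gave differences of 0.45 to 0.99 with upd and 0.36 to 0.85 in control media. As a share of the eIF4G pair's RPKM, eIF4G2 was at 35.8% to 48.4% in wild type and at 59.6% to 66.3% in the mutant. eIF4G2 shares 8.56% of its exon bases with CG33111 on the same strand.

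eIF4EHP (chromosome 3R, 24063077 to 24108960), which binds the cap without recruiting eIF4G and represses bound messages, measured 46.3, 49.8, 59.4 and 49.6 CPM in wild type and 72.3, 94.96, 79.3 and 109.8 in the mutant. All mutant libraries lay above all wild-type libraries. The difference was 0.80 ± 0.21 in both media, with an adjusted p of 0.0529 in control media and 0.0464 with upd, and leaving out 1 library gave 0.0413 to 0.226 for the latter, with 7 of 8 such fits losing the call. It shares 6.96% of its exon bases with Syx1A on the same strand. eIF4E1, the cap binder of general translation, was at 187 to 211 CPM in wild type and 209 to 259 in the mutant, and eIF4E6 at 40.9 to 56.5 and 46.2 to 59.3, and neither passed.

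Of the 13 tested eIF3 genes, eIF3f2 and, with upd, eIF3h passed. eIF3h (chromosome 2L, 5051193 to 5053094), a subunit that pairs with eIF3f in the complex, measured 332 and 413 CPM in wild-type control media, 393 and 471 with upd, and 247, 245, 263 and 225 in the mutant. The mutant libraries were tightly grouped and below all wild-type libraries, whose deeper replicates were the higher ones. The difference was -0.60 ± 0.17 in control media (adjusted p = 0.0675) and -0.82 ± 0.17 with upd (adjusted p = 0.019). The latter was lost without wild-type or mutant upd replicate 2, with an adjusted p up to 0.111, and in limma on log2(RPKM + 1) and log2(RPKM + 0.1). eIF3h shares 16.8% of its exon bases with senju on the opposite strand, a gene at a mean of 48.0 CPM. eIF3i was also lower in every mutant library (215 to 265 CPM against 279 to 312) and eIF3a higher (253 to 289 against 205 to 246), without passing (adjusted p 0.193 and 0.278 in control media). The remaining 9 subunit genes overlapped between the lines.

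The eIF2 subunits overlapped between the lines throughout. Of the eIF2B subunits, the catalytic eIF2Bepsilon was at 78.3 to 112 CPM in wild type and 60.97 to 73.6 in the mutant, with differences of -0.43 ± 0.21 and -0.44 ± 0.21 that did not pass (adjusted p = 0.247 and 0.217). Among the 8 elongation factors none passed in either medium in the edgeR fit of group means. eEF1beta was at 1217 to 1421 CPM in wild type and 1609 to 2007 in the mutant (0.53 ± 0.17 and 0.38 ± 0.17, adjusted p = 0.091 and 0.195). It was the only one with an unadjusted p under 0.05, in control media. There 3 of 17 alternatives passed it: DESeq2 (adjusted p = 0.0327), limma on quantile-normalised log2(RPKM + 1) (0.0428) and edgeR with the replicate number as a term (0.0425). eEF1gamma was at 1339 to 1908 CPM in wild type and 2026 to 2155 in the mutant, without passing (adjusted p = 0.276 and 0.34). The poorly expressed eEF1alpha2 had the third highest difference with upd, 1.44 ± 0.77 (adjusted p = 0.284), from 0.969 and 0.993 CPM in wild type to 2.57 and 2.78.

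Averaging the line difference over both media, a comparison chosen after the data were seen, passed 9 of 45 factors (20%), 6 higher and 3 lower, against 24% of all genes, 10.4% higher and 13.6% lower. These were the 7 above, with eIF4EHP at 0.80 ± 0.15 (adjusted p = 0.0059), eIF4G1 at -0.59 ± 0.11 (0.00664) and eIF3h at -0.71 ± 0.12 (0.00379). In addition eIF4G2 passed at 0.64 ± 0.16 (0.0224) and eEF1beta at 0.45 ± 0.12 (0.0251). All these values are by edgeR with Benjamini-Hochberg adjustment. Among the 9, eIF4B, eIF4H2 and eIF3f2 passed the filter on low counts only through the line where they were high. Their calls, in the average and in its alternative fits, are no independent support for a line difference. eIF4B, eIF4H2, eIF1A, eIF3h, eIF4G1 and eIF4EHP passed in this average in each of the 17 alternative fits, and eIF3f2 in all 16 that tested it. eIF1 did not pass (0.52 ± 0.18, adjusted p = 0.0737) but did in DESeq2 (0.0251), in the 3 limma fits (0.033 to 0.0486), without the filter (0.00184) and with the replicate number as a term (0.0047). eIF4G2 lost its call on leaving out any of 5 libraries (adjusted p up to 0.072) and eEF1beta on leaving out any of 7 (up to 0.107). All 4 mutant libraries lay above all 4 wild-type libraries for 9 factors and below them for 6, together 33.3% of the 45. Of all genes 31% were separated in this way, 14.7% above and 16.3% below. The average and this separation both count the 4 libraries of a line as separate. Same-numbered libraries within a line deviated together, with correlations of 0.485 in wild type and 0.514 in the mutant. The p-values of the average may therefore be too small.

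The median log2 difference of the 45 factors was 0.14 in control media, with 31 above 0 (68.9%), and 0.09 with upd, with 28 above 0 (62.2%). All tested genes had medians of 0.008 and 0.02, with 50.6% and 51.9% above 0. Over the alternative fits the median of the factors ranged from 0.055 to 0.2 in control media and from 0.022 to 0.13 with upd. The median of all genes ranged from -0.008 to 0.096 and from -0.003 to 0.056. With upd the factors lay below all genes in limma on quantile-normalised log2(RPKM + 1), at 0.036 against 0.056, and above them in the other fits. Without the 3 factors near 0 in a line, the differences of the other 42 lay between -0.82 and 1.44 in both media.

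**Figure D3:**
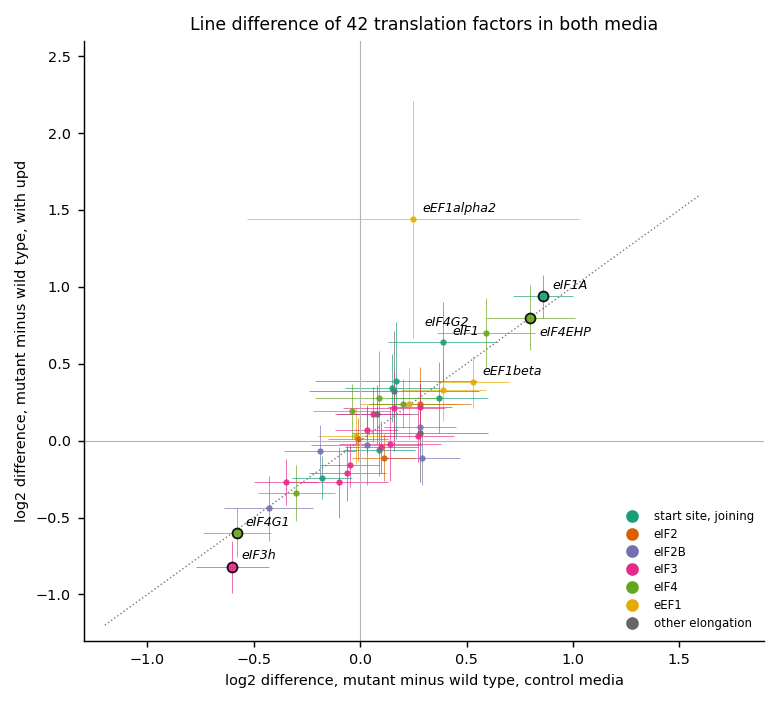
Log2 difference of mutant minus wild type in control media (x) and with upd (y) for 42 translation factors, with standard errors; colours mark roles, black outlines the factors past an adjusted p of 0.05 in either medium, and the dotted line equal values. The 2 axes use different libraries; of the plotted factors past the threshold, eIF1A lies highest, at 0.86 and 0.94, and eIF3h lowest, at -0.60 and -0.82; eEF1alpha2 lies above eIF1A with upd, at 1.44, with a wide error, and eIF4B, eIF4H2 and eIF3f2 are outside the plotted range.

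In the fit of group means, no translation factor passed after 1 hour of upd in either line. In wild-type cells 0 of 45 factors passed, where 0% of all genes did, and in mutant cells 0 of 45, again against 0%. None reached an unadjusted p of 0.05 in either line by edgeR's quasi-likelihood test, where 148 and 266 of all genes did, and DESeq2 and limma also passed 0 factors. In wild-type cells the differences spanned -0.50 to 0.26, with a median of 0.06 and 33 above 0. In mutant cells they spanned -0.37 to 0.69, with a median of 0.04 and 25 above 0. Limma on log2(RPKM + 1) moved the median of all genes to -0.058 in wild type and -0.139 in mutant cells, and the medians of the factors to -0.012 and -0.145, with 19 and 9 above 0. Within a line, libraries of the same number deviated together, and a fit with the replicate number as a term within each line passed 0 of 45 factors in wild-type cells, against 1.37% of all genes, and 3 of 45 in mutant cells, against 5.75%. These 3 were eIF4H1 (0.43 ± 0.10; adjusted p = 0.00971), eIF4G2 (0.32 ± 0.09; 0.036) and eIF6 (0.42 ± 0.12; 0.0415), a factor of large subunit maturation and joining that went from 45.4 and 67.4 to 73.3 and 75.1 CPM.

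The extremes of the upd comparison did not pass in the fit of group means. In wild type the highest was eIF4H1, with 2719 and 1775 CPM in control media and 3319 and 2053 with upd (0.26 ± 0.30), followed by eEF1alpha1 (0.23 ± 0.18) and eIF2Bdelta (0.23 ± 0.17). For eIF4H1 the upd library was above the control library of the same number in both lines, and replicate 1 was above replicate 2 in all 4 groups. The lowest were eEF1alpha2 (-0.50 ± 0.81), eIF4E6 (-0.25 ± 0.18) and eIF2Bgamma (-0.18 ± 0.17). In mutant cells the lowest was eIF2Bbeta, with 28.4 and 28.7 CPM in control media and 22.6 and 21.5 with upd (-0.37 ± 0.18; unadjusted p = 0.066), and next came eIF3b (-0.27 ± 0.23) and eIF4H2 (-0.24 ± 0.24). The highest with a fold that can be given were eEF1alpha2 (0.69 ± 0.74) and eIF4H1, from 2614 and 2164 to 3878 and 2664 CPM (0.45 ± 0.30). eIF4B had 1 count in mutant control media and 2 with upd, from which no fold is given.

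The difference of the upd response between lines passed for 0 of 45 factors, against 0% of all genes, with 0 factors and 88 genes at an unadjusted p under 0.05. Wild type minus mutant, the highest was eIF2Bbeta (0.41 ± 0.25), followed by eIF4H2 (0.31 ± 0.55) and eIF3m (0.24 ± 0.24), and the lowest were eEF1alpha2 (-1.18 ± 1.10) and eIF1 (-0.26 ± 0.37).

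**Figure D4:**
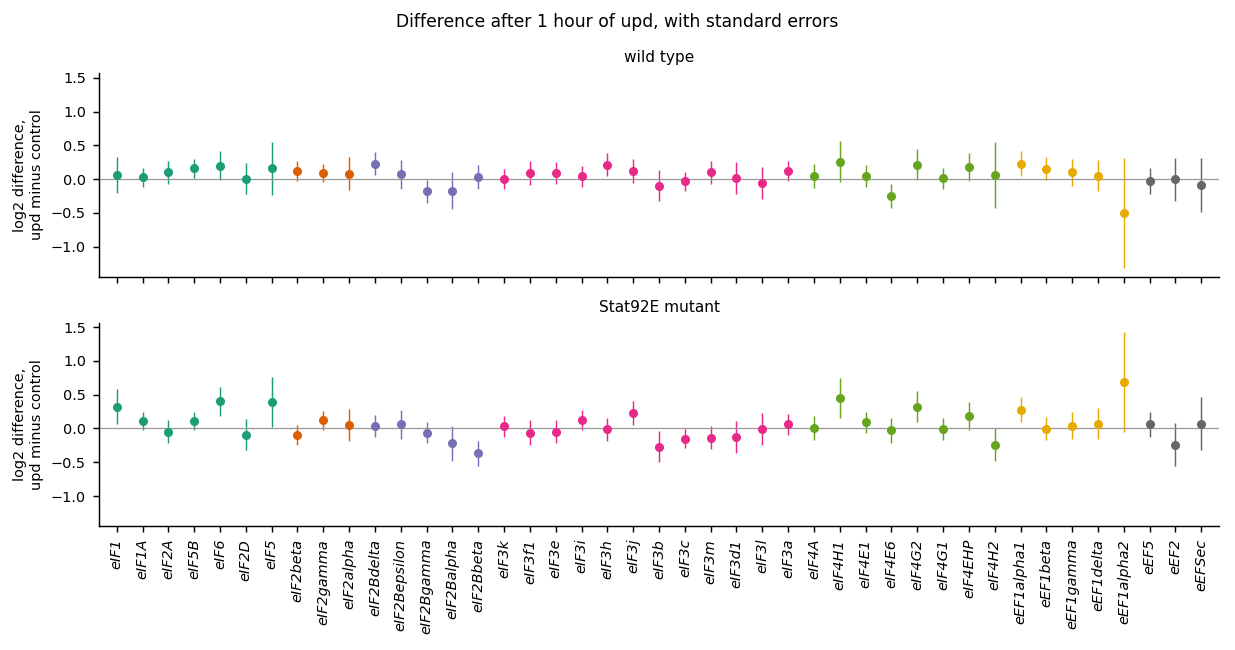
Log2 difference of upd minus control media after 1 hour in wild-type cells (top) and mutant cells (bottom) for 43 translation factors ordered as in the plot of levels, with standard errors; colours mark roles. eIF4B and eIF3f2, near 0 in a line, are left out; none of the points passed, and eEF1alpha2, at -0.50 and 0.69, has the widest error.

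Replicates of wild-type cells differed in a pattern that was alike in both media. In the deep replicate 2, 8 factors exceeded the shallow replicate 1 by over 0.3 on the log2 scale in both media, namely eEF2, eEF1gamma, eIF3b, eIF3l, eIF3f1, eIF3d1, eIF2Balpha and eIF2alpha, and 5 were lower by as much, eIF3j, eIF5, eIF1, eIF4G2 and eIF4H1. The translocase eEF2 was the clearest case, at 1769 and 1730 CPM in the shallow libraries and 3112 and 3139 in the deep ones, with 2358 to 3086 in the mutant. Differences over 0.5 occurred in 18.6% and 20.9% of 43 factors in wild-type control media and upd, and in 4.65% and 11.6% in the mutant. Among 7687 genes, which were not matched to the factors in level, the shares were 26.3%, 25.4%, 17.7% and 26.0%. The share of mitochondrially encoded transcripts also separated these replicates, with 20.2% and 22.1% in replicate 1 and 14.0% and 12.8% in replicate 2; whether this bears on the factors was not tested.

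**Figure D5:**
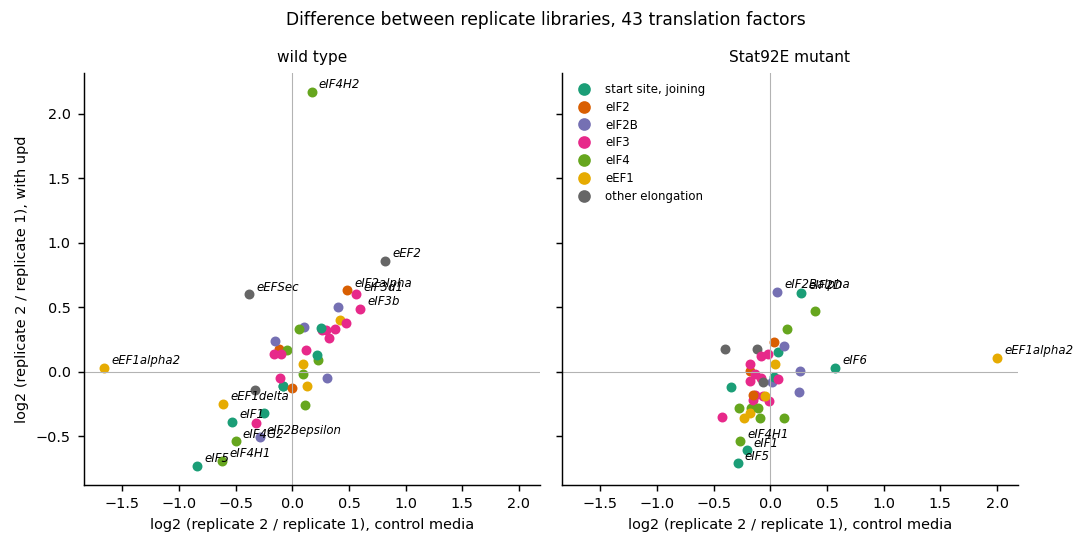
Log2 ratio of replicate 2 to replicate 1 in control media (x) and with upd (y) for 43 translation factors in wild-type cells (left) and mutant cells (right); colours mark roles, and names are given where a ratio passes 0.5 in size. In wild type eEF2, at 0.82 and 0.86, and eIF4H1, at -0.62 and -0.69, keep their direction in both media; eIF4H2 in wild type and eEF1alpha2 rest on few counts.

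Other genes of protein synthesis give the setting of these values. The 5 termination and recycling factors (eRF1, eRF3, pix, HBS1 and pelo) had 0 calls in any comparison by edgeR, with 1 unadjusted p under 0.05, in mutant cells after upd. Of 11 tested cap, poly(A) and repressor proteins, Thor, the eIF4E-binding repressor 4E-BP, and Paip2, an inhibitor of poly(A)-binding protein, passed between the lines. That is 18.2% of the list in each medium, against 8.97% of all genes in control media and 10.5% with upd. Thor was at 10.4, 13.8, 15.5 and 16.8 CPM in wild type and 4.06, 3.60, 6.15 and 2.61 in the mutant (-1.66 ± 0.39 and -1.89 ± 0.38; adjusted p = 0.0319 and 0.0168). Paip2 rose from 239, 218, 249 and 213 to 321, 393, 372 and 391 (0.64 ± 0.16 and 0.73 ± 0.16; adjusted p = 0.0419 and 0.0242). No library of one line overlapped the other for these 2 genes. In control media Thor was lost without any 1 of the control or wild-type upd libraries (adjusted p up to 0.153) and Paip2 without any 1 of the 8 (up to 0.26). With upd Thor was lost without either wild-type upd library (up to 0.0818) and Paip2 without any 1 of the upd libraries (up to 0.147), while in the average over both media both passed without any 1 library.

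None of the 8 tested kinases, phosphatase subunits and effectors of initiation passed by edgeR, and 1 of them had an unadjusted p under 0.05, between the lines with upd. Of 20 cytosolic aminoacyl-tRNA synthetases, which charge tRNAs for eEF1alpha1, alpha-PheRS was lower in the mutant, at 199, 212, 183 and 220 CPM in wild type and 101, 110, 87.1 and 93.6 in the mutant (-0.96 ± 0.15 and -1.15 ± 0.15; adjusted p = 0.00607 and 0.00213). Without mutant control replicate 1 its adjusted p in control media was 0.0767. LeuRS passed with upd (-0.61 ± 0.15; adjusted p = 0.0344) and was lost without any 1 of 6 libraries. Among 88 tested cytosolic ribosomal protein genes, 3 passed in control media (3.41%), with RpL12 and RpL22-like higher and RpS5b lower in the mutant. With upd 5 passed (5.68%), all higher and led by RpL12, RpS19b, RpL22-like and RpS23. RpL22-like stood at 0 to 0.126 CPM in wild type and 1.26 to 2.91 in the mutant. It passed the filter on low counts only through the mutant line, so its calls are no independent support for a line difference. Of the synthetases 5% passed in control media and 10% with upd, and of all genes 8.97% and 10.5%. The average over both media passed 7 ribosomal protein genes higher and 5 lower (13.6%), against 24% of all genes. RpL12 was at 749 to 889 CPM in wild type and 1280 to 1514 in the mutant (0.65 ± 0.16 and 0.77 ± 0.16; adjusted p = 0.036 and 0.018).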

How the data were processed

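Poly-A selected RNA was extracted with Trizol and prepared with the Wafergen PrepX kit, per the labels' protocols. The submitters' processing notes name Trimmomatic 0.36, STAR 2.5.2b and dm6. The sources used here do not give the read counter, its annotation or its strand setting, so reads of overlapping or antisense genes cannot be told apart. Each library has a deposited table of whole-number counts, lengths and RPKM per FlyBase identifier. The authors' RPKM values are these counts divided by gene length and 1 constant per library, tested on each table, and gene totals were 85.2% to 90.6% of that constant. Symbols and dm6 coordinates were taken from Ensembl, which matched 13852 of 13932 identifiers. The rule by symbol gave 51 genes, and 1 gene is not reported here.

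Counts of all 8 libraries were fitted with 4 group means by the quasi-likelihood test of edgeR 4.0.16 (R 4.3.3), after TMM scaling and filterByExpr, which left 8126 genes, 45 of them translation factors, and 4 residual degrees of freedom. Tests were two-sided, adjusted by Benjamini and Hochberg's method over all genes, with a threshold of 0.05. Library totals of 8285533 to 30352948 counts put a floor of 3 counts at 0.0961 to 0.379 CPM. Intervals and floors cover counting error only. A fold against a group at 0 uses 3 counts over the group. The script was tested on simulated data. Alternatives were DESeq2 1.42.0, limma 3.58.1 on log2 RPKM, other scalings, filters and priors, replicate blocks and leaving out each library. The average over both media, the counts of libraries that do not overlap, the neighbouring genes and the replicate differences were added after the data were seen. The members, gene lists and tests were chosen with earlier results of these data known.

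Named with values are factors that passed in any comparison, the 3 highest and 3 lowest differences of each comparison, the most abundant factor of each role, second copies, factors that failed the filter, and up to 4 genes of each other list by lowest p. eEF1beta, eIF4G2, eIF2Bepsilon, eIF3i, eIF3a, eIF4A and eEF1gamma were described between the lines after their values were seen. Markers are named as their lists give them.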

Additional observations from a re-analysis of the deposited data

How the results depend on the processing

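Of the 4 factors that passed between the lines in control media, the count became 8 with DESeq2, 8 with no filter on low counts, 9 with a replicate block and 9 in the average over both media, while the count over all genes went from 729 to 1084, 1294, 1247 and 1950. Leaving out 1 library gave 2 to 5, with 2 without wild-type control replicate 2 or mutant control replicate 1. Of the 7 with upd, leaving out 1 library gave 3 to 6, with 3 without wild-type or mutant upd replicate 2, and other alternatives gave 5 to 9. The counts of factors for upd in wild type and for the difference between responses stayed at 0 in every alternative with all libraries. In mutant cells the upd count was 0 except in a replicate block within each line, which passed 3 factors and 467 of all genes, and in wild type 0 factors and 111 genes.

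The labels do not say what a replicate number marks. Deviations of same-numbered libraries correlated at 0.485 between the wild-type groups and 0.514 between the mutant groups, and at -0.0595 to 0.0605 across the lines. With 2 libraries a group, these correlations cannot tell whether the numbers pair libraries across the lines. A shared source within a line was not tested. Under the replicate block over all libraries, eIF1 passed with upd (0.63 ± 0.13; adjusted p = 0.0167) and eIF4G2 in both media (0.0232 and 0.0116). Leaving out 1 library turned the direction of some small upd differences. eEF1alpha2 ranged from -1.21 to 0.44 in wild type and from -0.004 to 1.99 in the mutant, and eIF4H1 from -0.12 to 0.59 in wild type. In the difference between responses eIF1 ranged from -0.53 to 0.09 and eIF4H2 from -1.47 to 0.63. None of these passed in any fit.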
